A study of Parhyale hawaiensis with 42 samples.

Results

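The microRNAs miR-34, miR-277 and miR-317 were followed through the embryonic development of the amphipod crustacean *Parhyale hawaiensis*. All mature sequences whose name is exactly miR-34, miR-277 or miR-317 were taken, from both arms of each hairpin, which gave 6 arms of the 349 mature microRNAs listed and 3 of the 175 precursors. The data are 28 small RNA libraries from pooled, manually staged whole embryos of a wild type laboratory strain, without treatment, with 4 libraries at each of 7 time-points. These were named S1–4 and S5–6 for the early embryo, S7–11, S14 and S17 for mid embryogenesis, S21–23 for the transition to late embryogenesis, and S24–30 for the late embryo. The labels place the second time-point at stage 6 and the third at stages 8 to 11, and the names of the study are used here. The first time-point precedes zygotic transcription according to the study, so that its microRNAs are of maternal origin. Whether the 4 libraries of each time-point stem from separate cultures is not given in the sources used here, so the p-values measure only the spread between libraries, which may be technical. In whole embryos, fewer cells that contain a microRNA and less of it in each cell cannot be told apart.

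Mature microRNAs are cut from hairpin precursors, from which the 5p or the 3p arm is kept, and repress the mRNAs they pair with. In *Drosophila melanogaster* the genes of miR-317, miR-277 and miR-34 lie together and can be transcribed as a single primary RNA, so that differences in the amounts of their mature products can also arise after transcription. In that fly, miR-34 is known as a maternally supplied microRNA that also acts in the ageing nervous system, miR-277 as a regulator of the breakdown of branched-chain amino acids, and miR-317 as a regulator of the immune response. These roles are background from the fly and were not measured in *Parhyale*.

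All 3 precursors were annotated on the same contig, LQNS02000228.1 of the genome assembly Phaw 5.0, and no other listed precursor carried that contig. Their locus numbers were 2413 for miR-317, 2415 for miR-277 and 2418 for miR-34. The names used in the quantification hold no start, end or strand, so distances between the hairpins and the surrounding annotation are not analysed here. The mature arms were 21 to 23 nucleotides long, so that counts of different arms were compared without a correction for length.

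Library depth ranged from 112244 to 1846449 microRNA counts with a median of 474499, and was lowest at S14, with at most 276711. Counts were divided by the size factor of their library, and the resulting normalised counts are used for levels. S21–23 replicate 1 stood apart from the other 3 libraries of its time-point. Of 234 microRNAs with a mean of at least 10 normalised counts at 1 or more time-points, 29 were higher there by at least 2 on the log2 scale, and the miR-92 family took 10.2% of its counts, against 17.0% to 19.8% in the others and 2.65% to 7.42% at S24–30. For the main levels, ratios and profiles of the members that involve S21–23, values without this library are also given.

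The cluster gave its mature microRNAs almost entirely from a single arm of each hairpin, and this arm was 5p in miR-34 and 3p in miR-277 and miR-317. miR-34 had 1470 counts on the 5p arm and 15 on the 3p arm over all libraries, so that 98.99% came from the major arm. miR-277 had 2703 counts on the 3p arm and 37 on the 5p arm (98.6% major), and miR-317 had 1067 on the 3p arm and 2 on the 5p arm (99.8% major). None of the 3 minor arms passed the filter of 10 normalised counts, so 3 of the 6 arms were tested, against 234 of 349 over all microRNAs. The dominant arm had more counts in 28 of 28 libraries for miR-34, 26 for miR-277 and 27 for miR-317, and the remaining libraries had 0 counts on both arms. Most counts of the minor arm of miR-277 were found at S24–30, with 29 on the 5p arm beside 2306 on the 3p arm. The log2 ratio of 5p to 3p counts (0.5 added to both) differed between time-points by limma's F-test in miR-34 (adjusted p = 0.00116), miR-277 and miR-317 (adjusted p = 0.000225 for both), as it did in 78.2% of 156 precursors. Because the minor arm was at 0 in most libraries, this ratio followed the counts of the major arm, and no time-point showed a switch of the dominant arm. A count of 0 allows up to 3 counts at 95% confidence, a limit for counting error alone, because no molecular identifiers were used and PCR copies of a molecule are counted separately.

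Relative to the other microRNAs, miR-34-5p was highest in the early embryo, fell in 2 steps until S14 and rose again at the end of embryogenesis. At S1–4 it had 117, 216, 179.9 and 186 normalised counts in replicates 1 to 4, and at S5–6 it had 120.1, 168, 93.2 and 229. At S7–11 the values were 36.0, 33.3, 48.1 and 33.7, which lay below all 8 earlier libraries. Values of 12.5, 11.3, 8.74 and 8.42 followed at S14, and of 9.60, 12.5, 11.3 and 9.66 at S17. The libraries of S14 and S17 overlapped, and all 8 lay below those of S7–11. At S21–23 the normalised counts of miR-34-5p were 8.77, 5.24, 5.13 and 7.29, the lowest mean of the time course. At S24–30 they were 14.8, 26.2, 22.7 and 28.5, so that all 4 libraries lay above those of S14, S17 and S21–23 and below those of S7–11. The means were 175 ± 41.9 (SD, n = 4) at S1–4, 153 ± 59.8 at S5–6, 37.8 ± 6.98 at S7–11, 6.61 ± 1.75 at S21–23 and 23.1 ± 6.02 at S24–30. Without replicate 1 the S21–23 mean was 5.89 ± 1.21 (n = 3). In the order of means from S1–4 down to S21–23, the neighbours S1–4 and S5–6, S17 and S14, and S14 and S21–23 overlapped, and the other 3 neighbouring pairs did not.

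These changes were tested with edgeR in a model of all 7 time-points, and a change was called where its log2 value reached 1.5 in either direction and its p, adjusted over 234 microRNAs, did not exceed 0.001. From S5–6 to S7–11, miR-34-5p fell by 1.85 on the log2 scale (SE 0.31, adjusted p = 2.82e-05), as the single member called where 15.4% of microRNAs were called in either direction and 8.97% fell. From S7–11 to S14 it fell by 2.02 (SE 0.34, adjusted p = 5.71e-05), where 6.84% were called and 4.27% fell. This second call was lost without S14 replicate 4, which had 3 counts of miR-34-5p (-1.83, adjusted p = 0.00105). From S21–23 to S24–30 miR-34-5p rose by 1.63 (SE 0.32, adjusted p = 0.000407), where 9.4% were called and 2.99% rose. That rise was close to the threshold and was lost when S21–23 replicate 2, 3 or 4 or S24–30 replicate 2, 3 or 4 was left out, with log2 fold changes of 1.38 to 1.57. Between the first and the last time-point, miR-34-5p fell by 2.81 (SE 0.32, adjusted p = 2.06e-08), where 56% of microRNAs were called and 24.8% fell.

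miR-277-3p was low throughout early and mid embryogenesis and had the most counts of the members at the end. It had 19.2, 8.49, 12.6 and 8.39 normalised counts at S1–4, 4.71, 18.3, 5.92 and 15.0 at S5–6, and 3.20, 1.07, 1.25 and 8.87 at S7–11. The libraries of these 3 time-points overlapped, and behind the values stood 1 to 19 counts per library. At S14 the values were 6.25, 11.3, 0 and 8.42, and at S17 they were 0, 4.18, 1.13 and 1.93, from 0 to 5 counts. At this depth, differences between S7–11, S14 and S17 were not detectable. S21–23 replicate 1 had 97.5 normalised counts (278 counts), and the other 3 libraries had 6.29, 1.92 and 3.64 (3 to 7 counts). At S24–30 miR-277-3p had 135, 265, 244 and 186 normalised counts, above all other 24 libraries. Its mean was 208 ± 58.9 (SD, n = 4) at S24–30 and 27.3 ± 46.8 at S21–23, or 3.95 ± 2.20 (n = 3) without replicate 1. Only S24–30 was separated from its neighbour in the order of means, and the ranges of all other neighbouring time-points overlapped.

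By edgeR, miR-277-3p rose from S1–4 to S24–30 by 4.13 on the log2 scale (SE 1.01, adjusted p = 0.00069), a 17.5-fold difference, where 31.2% of microRNAs rose. From S7–11 to S24–30 it rose by 5.78 (SE 1.11, adjusted p = 5.29e-05), or 54.9-fold, where 53.4% were called and 28.2% rose. The first of these calls was lost without S1–4 replicate 2, 3 or 4 or without any of the S24–30 libraries, with log2 fold changes of 3.89 to 4.18 and adjusted p-values of 0.0011 to 0.00314. Both calls were kept without S21–23 replicate 1, at 3.95 (adjusted p = 1.42e-05 by edgeR) and 5.78 (adjusted p = 2.65e-07). The step at which the level increased could not be placed with all libraries in the model, since the change was 4.17 (SE 1.13, adjusted p = 0.00506) from S17 to S21–23 and 2.65 (SE 0.93, adjusted p = 0.0247) from S21–23 to S24–30, and neither passed. Without S21–23 replicate 1 the change was 1.08 from S17 to S21–23, which did not pass, and 5.55 from S21–23 to S24–30 (adjusted p = 1.1e-05), which did.

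The means of miR-317-3p were high until S7–11, low from S14 to S21–23 and intermediate at S24–30, and in contrast to miR-34-5p its level at S7–11 still overlapped the earlier ones. Its normalised counts were 58.9, 63.7, 54.4 and 76.9 at S1–4, 94.2, 38.3, 57.7 and 117 at S5–6, and 43.2, 52.6, 59.9 and 39.0 at S7–11. These 3 time-points overlapped. At S14 the values were 26.2, 8.49, 8.74 and 0, and at S17 they were 2.40, 4.18, 7.94 and 9.66. S21–23 had 16.5, 6.29, 7.69 and 8.85, the highest again in replicate 1. At S24–30 miR-317-3p had 23.5, 34.9, 26.8 and 33.1, all above S17 and S21–23 and all below S7–11. Its mean was 63.5 ± 9.69 (SD, n = 4) at S1–4, 48.7 ± 9.40 at S7–11, 10.9 ± 11.0 at S14, 6.04 ± 3.34 at S17 and 29.6 ± 5.36 at S24–30. At S21–23 it was 9.83 ± 4.56, or 7.61 ± 1.28 (n = 3) without replicate 1.

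No change of miR-317-3p was called by edgeR, and no member was called from S1–4 to S5–6, S14 to S17 or S17 to S21–23, where 1.28%, 0.855% and 8.12% of all microRNAs were called. The largest change of miR-317-3p was from S7–11 to S14, with a log2 fold change of -2.25 (SE 0.57, adjusted p = 0.00379 by edgeR), and it passed without S14 replicate 1 (-3.04, adjusted p = 0.000838) and with the Wald test of DESeq2 (-1.99). From S21–23 to S24–30 the change was 1.41 (SE 0.54, adjusted p = 0.0398), and from S1–4 to S24–30 it was -0.99 (SE 0.53, adjusted p = 0.084). Over all 7 time-points, edgeR's F-test passed an adjusted p of 0.05 for miR-34-5p (2.89e-13), miR-277-3p (1.92e-06) and miR-317-3p (6.36e-06), as it did for 84.2% of the 234 microRNAs. These profiles are shown in the plot of the major arms by library.

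**Figure D1:**
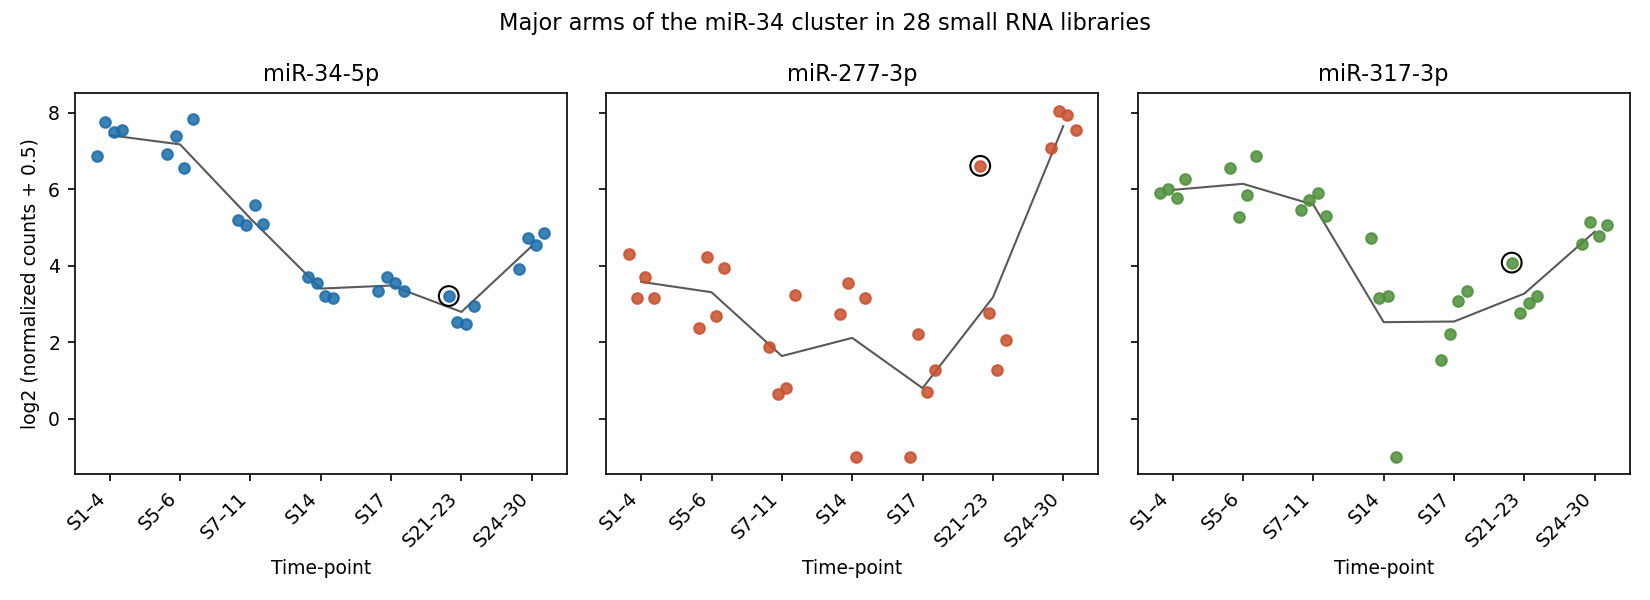
Level of the 3 major arms in each of the 28 small RNA libraries, as log2 of normalised counts after 0.5 was added, by time-point. Each point is a library, the line joins the means of the 4 libraries, the 3 points at -1 are libraries with 0 counts, and the circles mark S21–23 replicate 1. miR-34-5p and miR-317-3p start high and end between their extremes, and miR-277-3p is highest in the 4 libraries of S24–30 (135 to 265 normalised counts).

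The scaling of the libraries mattered for the direction of these changes. After TMM scaling, used above, the median log2 fold change of all 234 microRNAs from S1–4 to S24–30 was 1.09, and with total counts alone it was 3.22. From S5–6 to S7–11 the medians were -0.25 and 1.24. Distances from the median of all microRNAs hardly depend on the scaling, which shifts all microRNAs of a comparison by nearly the same amount. From S1–4 to S24–30 miR-34-5p lay 3.90 below the median with TMM and 3.89 below it with total counts (differences of -3.90 and -3.89). miR-317-3p lay 2.08 and 2.05 below it (-2.08 and -2.05), and miR-277-3p 3.05 and 3.10 above it. As a share of all counts, the decrease of miR-34-5p from S1–4 to S24–30 was -0.68 on the log2 scale (SE 0.37, adjusted p = 0.0862) and was no longer called, that of miR-317-3p became an increase of 1.17 (SE 0.55, adjusted p = 0.051), and miR-277-3p still rose, by 6.32 (adjusted p = 1.13e-05). The falls of miR-34-5p from S5–6 to S7–11 and from S7–11 to S14 were -0.31 (adjusted p = 0.506) and -1.47 (adjusted p = 0.00633) in this scaling and did not pass, nor did its rise from S21–23 to S24–30 (1.53, adjusted p = 0.00335). The directions given for miR-34-5p and miR-317-3p are therefore changes relative to the other microRNAs.

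**Figure D2:**
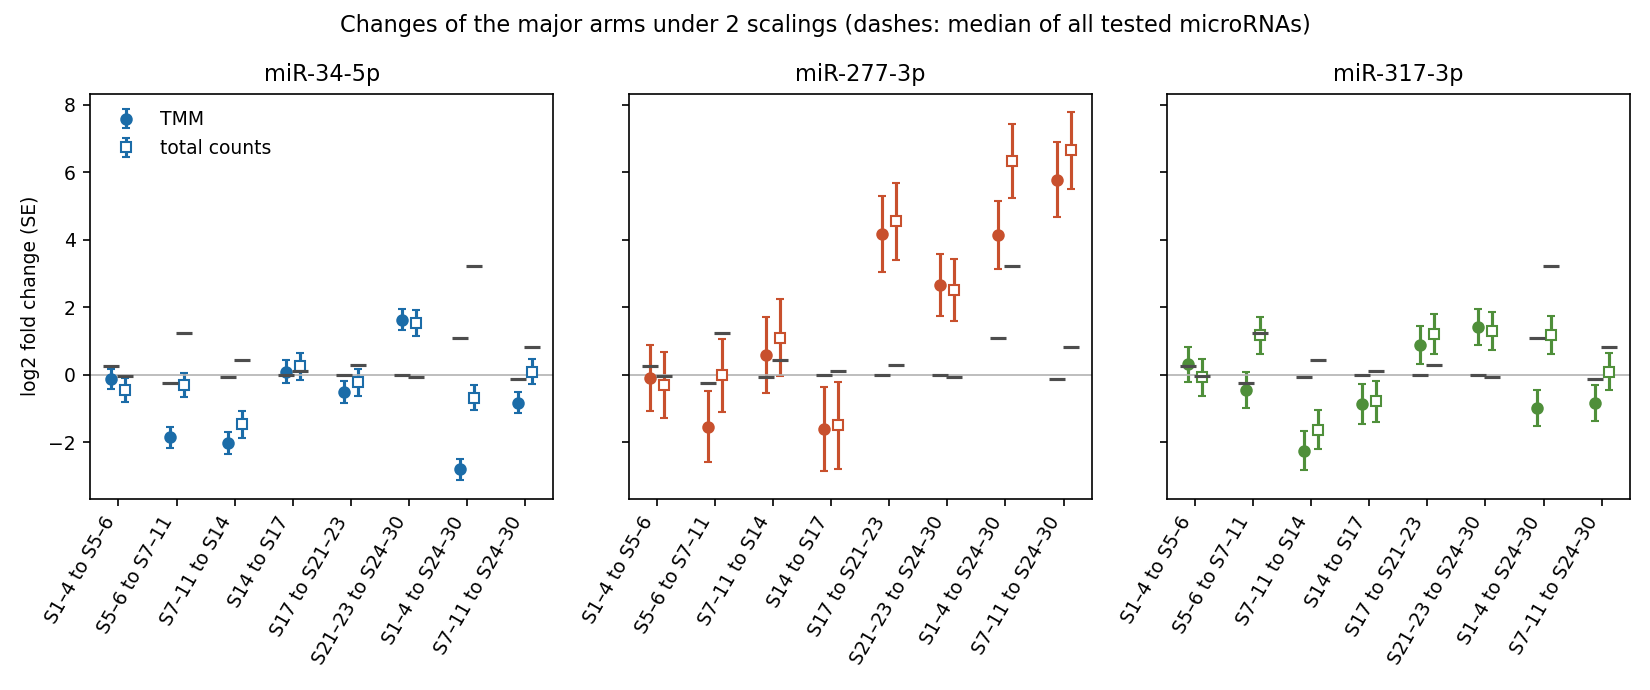
Log2 fold changes of the 3 major arms in the 8 comparisons of time-points, from edgeR after TMM scaling (filled circles) or with total counts alone (open squares), with bars of 1 standard error. Dashes are the median change of all tested microRNAs in the same scaling. From S1–4 to S24–30, miR-34-5p and miR-317-3p lie below the median in both scalings and miR-277-3p above it, which the scaling could hardly change. The sign of miR-317-3p turns from -0.99 to 1.17.

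Within a library the ratio of 2 members does not depend on the scaling, and it shows how the cluster changed in makeup. miR-34 gave 69.2% ± 6.72 (SD, n = 4) of the counts of the cluster at S1–4, 63.3% ± 8.15 at S5–6, 41.8% ± 2.65 at S7–11 and 8.99% ± 1.85 at S24–30. Over the same 4 time-points miR-277 gave 5.23% ± 3.25, 4.70% ± 2.88, 4.28% ± 4.57 and 79.4% ± 3.50, and miR-317 25.5% ± 4.22, 32.0% ± 11.0, 53.9% ± 5.27 and 11.6% ± 2.02. By counts, the leading member was thus miR-34 at S1–4 and S5–6, miR-317 at S7–11 and miR-277 at S24–30, in each case in all 4 libraries. How closely counts of different microRNAs follow their amounts in the embryo was not tested. At S14 and S17 the cluster had 6 to 36 counts per library, and the shares spread widely, from 0% to 50% for miR-277 at S14. At S21–23, replicate 1 had 79.8% of its cluster counts on miR-277, inside the range of 75.1% to 83.1% at S24–30, and the other 3 libraries had 13.0% to 33.3%. As a share of all microRNA counts, the whole cluster took 223 ± 60.7 CPM (SD, n = 4) at S1–4, 67.5 ± 16.2 at S17 and 1103 ± 187 at S24–30. In normalised counts its means at these time-points were 252 ± 41.5, 18.6 ± 4.44 and 264 ± 67.0. The rise from S1–4 to S24–30 thus depended on the scaling.

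**Figure D3:**
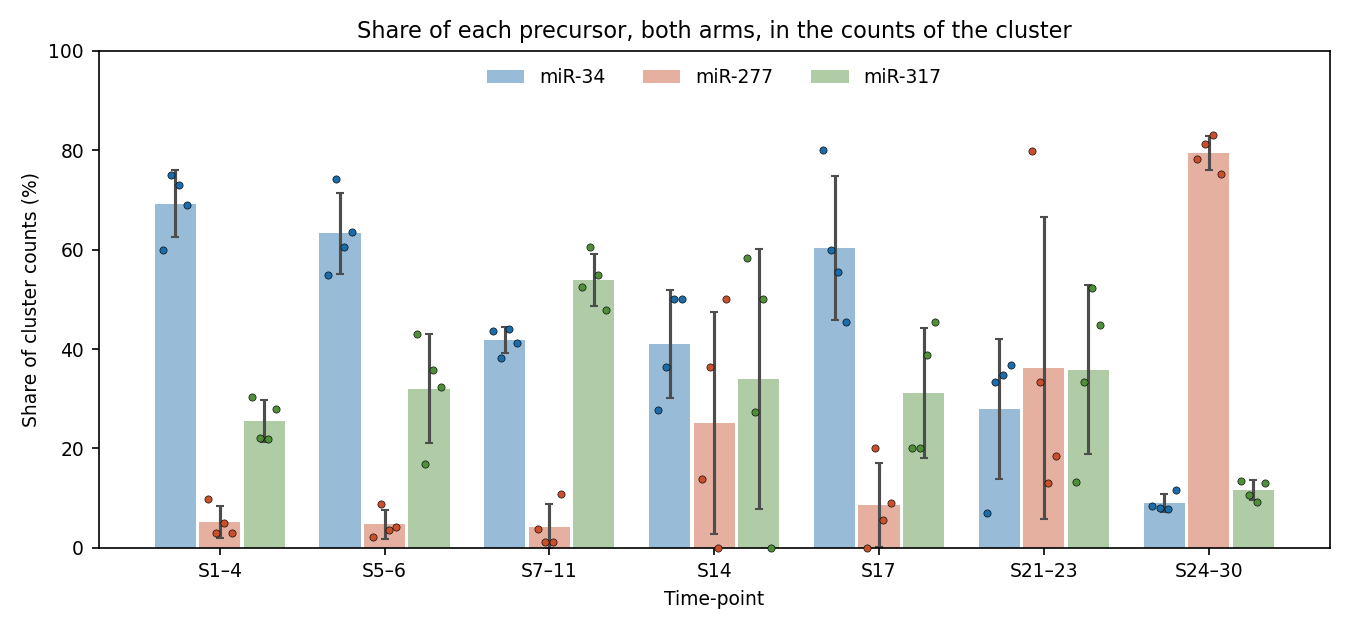
Share of miR-34, miR-277 and miR-317 in the counts of the cluster, both arms together, at each time-point. Bars are means of 4 libraries, error bars 1 SD and points single libraries. miR-34 leads at S1–4 with 69.2%, miR-317 at S7–11 with 53.9% and miR-277 at S24–30 with 79.4%, and the spread is wide at S14 and S17, where counts are low, and at S21–23, where replicate 1 stands apart.

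The log2 ratio of miR-277-3p to miR-34-5p (0.5 added to both counts) was -2.56, -4.51, -3.80 and -4.36 in the S1–4 libraries and 3.17, 3.33, 3.42 and 2.70 in those of S24–30. Its mean was -3.81 ± 0.88 (SD, n = 4) at S1–4, -3.79 ± 0.50 at S5–6 and -3.64 ± 1.35 at S7–11. It then went through -1.26 ± 1.94 for S14, -2.60 ± 1.14 for S17 and 0.36 ± 2.16 for S21–23 to 3.16 ± 0.32 for S24–30. The S21–23 mean turned to -0.66 ± 0.80 (n = 3) without replicate 1, in which the ratio was 3.45. The ratio was below 0 in all 12 libraries until S7–11 and above 0 in all 4 of S24–30. Between S1–4 and S24–30 it increased by 6.96, with no overlap, and the two-sided exact permutation test gave p = 0.0286, the smallest that 4 against 4 libraries allow, or 0.0762 adjusted over 8 comparisons, and no comparison of this ratio passed 0.05 after adjustment. A limma contrast of the ratios of all 233 other microRNAs to miR-34-5p, chosen after the data were seen, gave an adjusted p of 1.76e-07 for the same difference (SE 0.91), where 86.3% of the microRNAs passed 0.05.

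For the single steps of the time course, the same contrast of miR-277-3p against miR-34-5p passed at 3 of 6 steps, and from S14 to S17 it gave -1.35 (SE 0.91, adjusted p = 0.488). It gave 0.019 (SE 0.91, adjusted p = 0.989) from S1–4 to S5–6, where 6.01% passed, and 0.15 (SE 0.91, adjusted p = 0.911) from S5–6 to S7–11, where 62.2% passed. The ratio increased by 2.38 from S7–11 to S14 (adjusted p = 0.0267 by limma, 64.4% passed), by 2.97 from S17 to S21–23 (adjusted p = 0.0136, 31.3% passed) and by 2.79 from S21–23 to S24–30 (adjusted p = 0.0104, 67.4% passed). The first of these increases rests on S14 libraries with 0 to 5 counts of miR-277-3p and 3 to 10 of miR-34-5p. Without S21–23 replicate 1 the other 2 increases were 1.94 (adjusted p = 0.0912 by limma), which did not pass, and 3.82 (adjusted p = 0.000378), so that the order of the 2 steps turned. The exact permutation test with all libraries gave p = 0.0857, 0.0286 and 0.143 for the same 3 steps.

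miR-317-3p stayed much closer to miR-34-5p and rose against it by S7–11. Its mean ratio was lower at S14 and S17, where counts were few. Its log2 ratio to miR-34-5p was -0.98, -1.75, -1.72 and -1.27 in the S1–4 libraries and 0.26, 0.65, 0.32 and 0.21 in those of S7–11, without overlap. The mean was -1.43 ± 0.37 (SD, n = 4) at S1–4, -1.03 ± 0.77 at S5–6 and 0.36 ± 0.20 at S7–11. Later means were -0.53 ± 1.63 for S14, -0.92 ± 0.82 for S17, 0.49 ± 0.31 for S21–23 and 0.38 ± 0.21 for S24–30. The S14 libraries had 1.03, -0.36, 0 and -2.81, and the last rests on 0 counts of miR-317-3p and 3 of miR-34-5p. From S7–11 to S14 the difference was -0.89 (SE 0.55, adjusted p = 0.155 by limma) and did not pass, and the exact permutation test gave p = 0.4. The S21–23 mean was 0.36 ± 0.17 (n = 3) without replicate 1. From S5–6 to S7–11 the ratio increased by 1.39 (SE 0.55, adjusted p = 0.0321 by limma, 62.2% passed), while miR-34-5p fell and miR-317-3p changed by -0.46 (SE 0.53). The exact permutation test gave p = 0.0286 for this step, or 0.0762 adjusted over 8 comparisons. Between S7–11 and S24–30 it differed by 0.022 (SE 0.55, adjusted p = 0.969 by limma), where 70.4% of the microRNAs passed. The ratio of miR-277-3p to miR-317-3p increased by 6.77 between the same time-points (SE 1.07, adjusted p = 3.91e-06 by limma, 65.7% passed). That ratio also increased from S1–4 to S24–30, by 5.15 (adjusted p = 0.000109 by limma, 77.3% passed). From S21–23 to S24–30 it increased by 2.90 (adjusted p = 0.0285 by limma, 48.1% passed), or 3.79 without S21–23 replicate 1 (adjusted p = 0.0058). The difference from S7–11 to S14 was 3.28 (adjusted p = 0.00848 by limma, 75.5% passed), but the libraries overlapped and the exact permutation test gave p = 0.114. It rests on S14 libraries with 0 to 5 counts of miR-277-3p and 0 to 21 of miR-317-3p, in which the ratio ranged from -4.09 to 2.81.

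**Figure D4:**
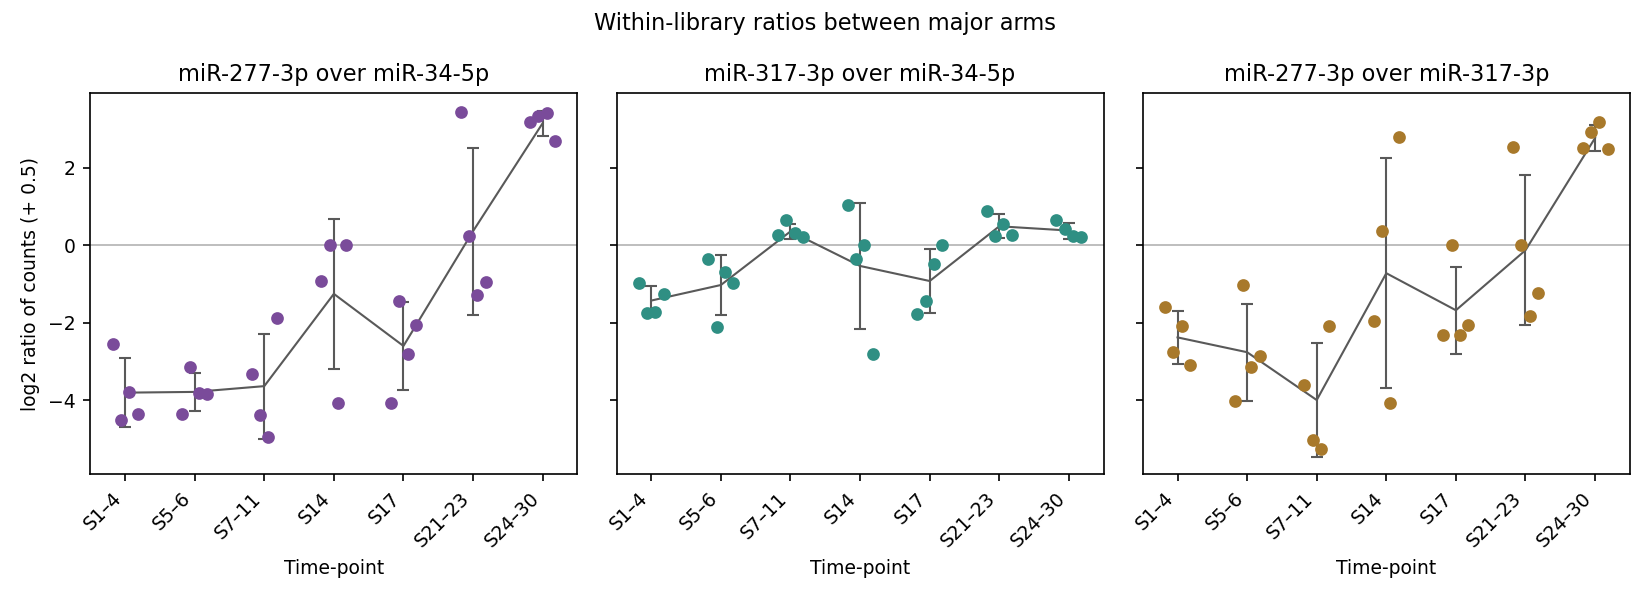
Log2 ratio between the counts of 2 major arms in each library, with 0.5 added to both counts, for the 3 pairs of members. Points are libraries, and the line and bars give the mean and 1 SD of 4 libraries. The ratio of miR-277-3p to miR-34-5p goes from a mean of -3.81 at S1–4 to 3.16 at S24–30, and that of miR-317-3p to miR-34-5p from -1.43 to 0.38.

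Over all 7 time-points, limma's F-test on the ratio to miR-34-5p gave an adjusted p of 2.95e-07 for miR-277-3p and of 0.00567 for miR-317-3p, and 98.3% of 233 microRNAs passed. The means of the ratio spanned 6.96 on the log2 scale for miR-277-3p, close to the median of 6.68 over all microRNAs, and 105 microRNAs had a wider span. For miR-317-3p the span was 1.92, and 231 of the 233 had a wider one. In this measure miR-277-3p lay near the middle of all microRNAs, and miR-317-3p was among the nearest to miR-34-5p.

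Profiles were also compared by the root mean square difference (RMS) of log2 time-point means, each centred on its own mean over the 7 time-points, as a description without a test. miR-317-3p was the 6th nearest of 233 microRNAs to miR-34-5p (RMS 0.73), although it took rank 26 when z-scores were used, and miR-277-3p took rank 142 (RMS 2.61, median of all 2.31). Without S21–23 replicate 1 these ranks were 5 and 118. The nearest profile to miR-34-5p was that of LQNS02000137.1_325-3p, a microRNA without a known family name (RMS 0.42), which had 9600 ± 1507 (SD, n = 4) normalised counts at S1–4, 735 ± 138 at S21–23 and 1484 ± 273 at S24–30. It was followed by LQNS02277275.1_26028-5p (0.47), LQNS02277090.1_23938-3p (0.61), Dpu-Mir-10-P3-3p (0.62) and LQNS02137618.1_14868-3p (0.70). Of these, the 3 in the middle were near 0 from S14 on.

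Nearest to miR-277-3p were LQNS02278074.1_32154-5p (RMS 0.28), LQNS02278163.1_43702-3p (0.35), miR-316-5p (0.51), 1 copy of miR-133-3p, a muscle microRNA of many animals (0.59), and miR-315-5p (0.65). All 5 had their highest mean at S24–30. Without S21–23 replicate 1 the first 2 kept ranks 1 and 2, and miR-316-5p, this copy of miR-133-3p and miR-315-5p moved to ranks 10, 15 and 27 (RMS 0.996, 1.09 and 1.29), so that their nearness rests on that library. miR-316-5p, for example, had 202 ± 142 normalised counts (SD, n = 4) at S1–4, 71.8 ± 31.0 at S7–11, 896 ± 770 at S21–23 and 5187 ± 1191 at S24–30. miR-315-5p had 409 ± 220 at S1–4, 2178 ± 832 at S21–23 and 6875 ± 1537 at S24–30. The other 3 had means of 154 ± 48.7, 185 ± 48.5 and 129.7 ± 27.96 at S24–30, in the order in which they are named above, near the 208 ± 58.9 of miR-277-3p.

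Other microRNAs whose precursors share a contig show how unlike neighbours can be. There were 79 pairs of major arms of different known families on the same contig, of which 3 were pairs of cluster members, and many of the others lay further apart in locus numbers. Copies of a microRNA entered as separate pairs, and many pairs came from a single contig with copies of miR-2b and Dpu-Mir-1175. The ranks are therefore not ranks among distinct pairs of families. miR-277-3p and miR-34-5p were the 4th least alike pair (RMS 2.61), miR-277-3p and miR-317-3p the 14th (2.14), and miR-317-3p and miR-34-5p the 69th (0.73). Without S21–23 replicate 1 they took ranks 7, 21 and 69. The least alike pair was bantam-3p and a copy of miR-981-3p (3.17). By contrast, miR-275-3p and miR-305-5p, which lie together in insects too, had an RMS of 0.51, and isc-miR-2b-3p and miR-71-5p had the smallest (0.29).

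**Figure D5:**
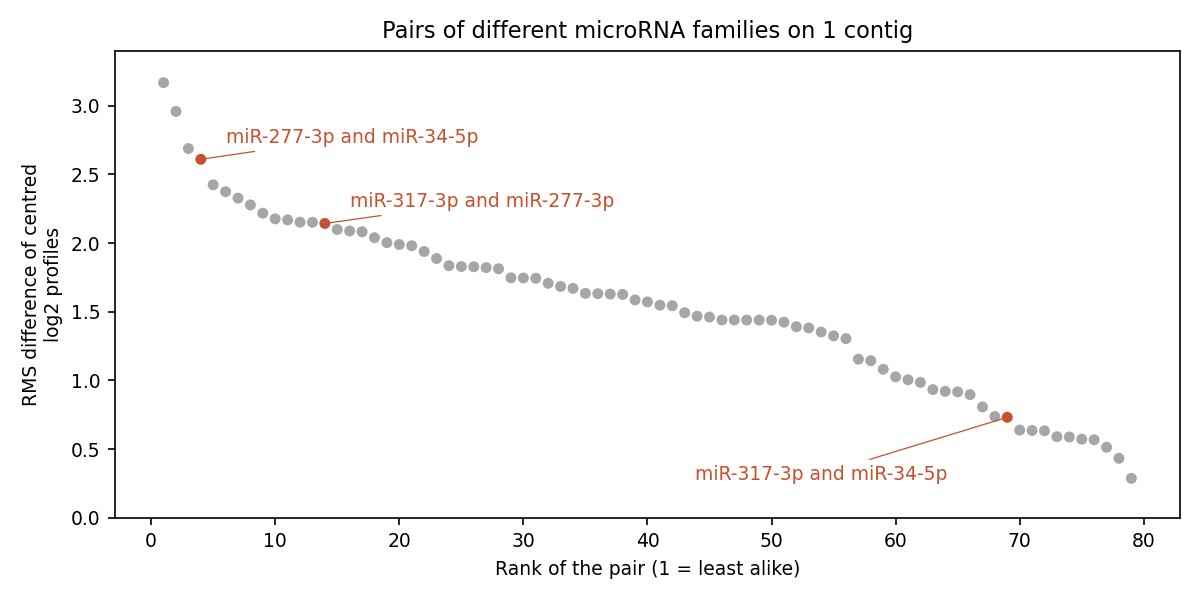
Root mean square difference of centred log2 profiles for 79 pairs of microRNAs of different families on the same contig, ordered from the least to the most alike. The 3 pairs of cluster members are coloured, and copies of a microRNA enter as separate pairs. The pair of miR-277-3p and miR-34-5p is the 4th least alike (2.61), and that of miR-317-3p and miR-34-5p is near the other end (0.73).

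In a list of 16 conserved microRNAs known from the nervous system, muscle or late differentiation of other animals, chosen with earlier results of these data known, 13 names were matched and 22 arms were tested. From S1–4 to S24–30, 14 of the 22 rose by edgeR and the rest were not called, where 31.2% of all 234 microRNAs rose, with a median log2 fold change of 2.78 against 1.09 over all microRNAs. miR-124-3p, a neuronal microRNA of many animals, rose by 6.00 (adjusted p = 1.22e-05), miR-315-5p by 4.16 (adjusted p = 3.86e-10) and miR-7-5p by 2.85 (adjusted p = 2.76e-09). The 4.13 of miR-277-3p lay among the 22 values, and the -2.81 of miR-34-5p and -0.99 of miR-317-3p lay below all of them. Names were matched as written, and no tested arm carried the listed names miR-100 or miR-125. Dpu-Mir-10-P2-5p and Dpu-Mir-10-P3-5p, on the contig of let-7c, were not among the 22 and went the other way. They changed by -5.07 (adjusted p = 4.55e-11 by edgeR) and -4.80 (adjusted p = 1.65e-06). Whether they are miR-100 and miR-125 under other names was not tested. From S7–11 to S24–30, 14 of the 22 arms rose and 2 fell, where 53.4% of all microRNAs were called and 28.2% rose. Their median was 2.67 against -0.13 over all microRNAs.

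S21–23 replicate 1 lay between its own time-point and the next in all 3 members, to different extents. On a scale from 0 (mean log2 level of the other 3 S21–23 libraries) to 1 (mean of S24–30), it was at 0.82 for miR-277-3p, 0.57 for miR-317-3p and 0.30 for miR-34-5p. Among the same 234 microRNAs tested without this library, the median was 0.67 for the 24 called higher at S24–30 and 0.53 for the 22 called lower. The stage of the embryos in this library against the other 3 was not tested.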

How the data were processed

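Small RNA libraries of whole embryos (28, 4 per time-point) were used, and the 14 mRNA libraries were not used here. The deposited values are expected counts, the reads that salmon (version 0.14.1) estimated for each mature microRNA, not normalised. For these the authors trimmed reads with cutadapt (version 1.18), removed tRNA and rRNA reads, and mapped the rest with Bowtie (version 1.1.1, up to 1 mismatch, all matches) to mature microRNAs predicted by miRDeep2 on Phaw 5.0. Reads that match several copies were divided by salmon, and the counts of the 6 arms were whole numbers. Libraries were not pooled. Versions are also in the submitters' processing notes.

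Expected counts were rounded. Levels were normalised with DESeq2 size factors (version 1.42.0), and microRNAs with a mean of at least 10 normalised counts at 1 or more time-points entered a quasi-likelihood test of edgeR (version 4.0.16, TMM, 1 model of 7 groups) in 8 comparisons. Calls needed a log2 value of 1.5 or more in either direction and a Benjamini-Hochberg adjusted p of 0.001 or less. F-tests and contrasts on log2 ratios (0.5 added) used limma (version 3.58.1, adjusted p of at most 0.05) in R (version 4.3.3). Scripts were tested on simulated data, and matplotlib (version 3.10.9) under Python (version 3.11.15) made the figures. No 2 replicates agreed within sampling noise (chi-squared over degrees of freedom of 7.79 to 228 in 42 pairs). Depth was 112244 to 1846449 counts, and levels at S14 and S17 rest on few counts. Named microRNAs are all arms of the members, the 5 with the nearest profiles to the major arms of miR-34 and miR-277, partners on shared contigs and a comparison list, in which let-7 was matched as let-7c. The members and lists were chosen with earlier results of these data known. Alternatives were another test, other scalings, no filter, another pseudocount, summed arms or copies, the replicate number as a block, and each library left out.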

Additional observations from a re-analysis of the deposited data

Results flagged for a closer look

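Within each time-point, the highest or lowest of the 4 libraries was examined for its distance from the others in 70 groups of values, and 4 groups stood apart. Chance alone would pick about 1 in 20, which is close to this share. The groups overlap in arms and libraries and are not independent. Of the 4 groups, 3 belong to S21–23 replicate 1. It had 97.5 normalised counts of miR-277-3p, against 1.92 to 6.29 in the other 3 libraries, 698 CPM over the whole cluster, against 74.8 to 89.1, and 7.003% of its cluster counts on miR-34, against 33.3% to 36.8%. The fourth was S17 replicate 2, in which the log2 ratio of miR-277-3p to miR-317-3p was 0, against -2.32 to -2.07 in the other libraries. It rests on 3 counts of each arm.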

How the results depend on the processing

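Levels at S14 and S17 rest on 0 to 21 counts per library, which limits what they can show. The replicate numbers were not taken as pairs, since the correlation of deviations was over 0.1 in 21 of 84 pairs of same-numbered libraries (-0.54 to 0.30, median 0.033) and not in all. It was over 0.1 in 40 of 252 pairs with different numbers (median -0.011), and 15 of 28 libraries correlated best with their own number, a hint of some pairing from the data and not the design. With the replicate number as a block, no member changed its call, and the number called from S1–4 to S5–6 went from 3 to 0 (74 and 73 at an unadjusted p under 0.05, by edgeR).

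With total counts in place of TMM, miR-34-5p changed by -0.31 from S5–6 to S7–11, -1.47 from S7–11 to S14, 1.53 from S21–23 to S24–30 and -0.68 from S1–4 to S24–30, and none of these passed. Its change from S7–11 to S24–30 turned to 0.082, and those of miR-317-3p turned to -0.074 from S1–4 to S5–6, 1.16 from S5–6 to S7–11, 1.17 from S1–4 to S24–30 and 0.083 from S7–11 to S24–30. The number called from S5–6 to S7–11 went from 36 to 69. DESeq2 called 8 instead of 3 from S1–4 to S5–6, 8 instead of 2 from S14 to S17 and 40 instead of 22 from S21–23 to S24–30, and it called miR-317-3p from S7–11 to S14 (-1.99) and from S21–23 to S24–30 (1.53). With copies summed, miR-34-5p from S21–23 to S24–30 was 1.46 and did not pass. With TMM computed without the miR-92 family, miR-34-5p from S14 to S17 turned to -0.056, and 1 microRNA was called in that step. By z-scores, miR-317-3p took rank 26 instead of 6 in likeness to miR-34-5p. The cause was not tested.

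The limma contrasts, chosen after the data were seen, passed where the exact permutation test did not. For miR-277-3p over miR-34-5p this held from S7–11 to S14 (2.38), S17 to S21–23 (2.97), S21–23 to S24–30 (2.79), S1–4 to S24–30 (6.96) and S7–11 to S24–30 (6.80). For miR-317-3p over miR-34-5p it held from S5–6 to S7–11 (1.39) and S1–4 to S24–30 (1.81), and for miR-277-3p over miR-317-3p from S7–11 to S14 (3.28), S21–23 to S24–30 (2.90), S1–4 to S24–30 (5.15) and S7–11 to S24–30 (6.77).

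Leaving out each library in turn, the number of microRNAs called was 0 to 5 from S1–4 to S5–6, 2 to 4 from S14 to S17, 10 to 47 from S21–23 to S24–30 and 10 to 20 from S7–11 to S14. With the filter on low counts applied anew, the count from S21–23 to S24–30 was 47 without S21–23 replicate 1 and 10 to 14 without S21–23 replicate 2, 3 or 4 or S24–30 replicate 2, 3 or 4, and the 10 from S7–11 to S14 came without S14 replicate 4. The log2 fold change of miR-277-3p was 3.89 to 4.49 from S1–4 to S24–30, -0.68 to 0.031 from S1–4 to S5–6 and 2.16 to 5.55 from S21–23 to S24–30. The log2 fold change of miR-317-3p was -0.052 to 0.41 from S1–4 to S5–6 and -3.04 to -1.76 from S7–11 to S14. The log2 fold change of miR-34-5p was -0.011 to 0.19 from S14 to S17, 1.38 to 1.88 from S21–23 to S24–30 and -2.15 to -1.74 from S7–11 to S14. For the log2 ratio of miR-277-3p over miR-317-3p the difference was -0.96 to 0.035 from S1–4 to S5–6 and -2.08 to 0.22 from S14 to S17. For the log2 ratio of miR-277-3p over miR-34-5p the difference was -0.21 to 0.43 from S1–4 to S5–6 and -0.44 to 0.59 from S5–6 to S7–11. For the log2 ratio of miR-317-3p over miR-34-5p the difference was -1.15 to 0.13 from S14 to S17, -0.20 to 0.025 from S21–23 to S24–30 and -0.071 to 0.12 from S7–11 to S24–30. The F-tests of the ratios to miR-34-5p and of the arms passed without any 1 library.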
